A study of Mus musculus with 8 samples.

Results

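The miR-17-92 cluster and its paralogues are represented here by 10 of the 1881 mouse microRNAs (miRNAs) on the array. They were taken by name: 6 from miR-17-92 (mmu-miR-17-5p, mmu-miR-18a-5p, mmu-miR-19a-3p, mmu-miR-20a-5p, mmu-miR-19b-3p and mmu-miR-92a-3p), 3 from miR-106b-25 (mmu-miR-106b-5p, mmu-miR-93-5p and mmu-miR-25-3p) and 1 from miR-106a-363 (mmu-miR-20b-5p); the mouse prefix is dropped from here on. All 10 were on the array, and all 10 were well above background on all 8 arrays and entered the test. The study profiled exosomes, small vesicles released by cells, from the amniotic fluid of pregnant mice on single-colour Agilent arrays. In 4 samples the fluid came from preterm births brought on by lipopolysaccharide (LPS, a bacterial cell wall component that triggers inflammation), of which 100 μg per kg was injected into the abdomen on pregnancy day 14 and followed by delivery at about 48 h. The other 4 came from cesarean sections and served as controls, and the labels do not say whether those mice were injected. The labels place all 8 samples at day 17, which does not match that injection day plus 48 h, so the gestational age at collection is not settled. They name no strain and do not say whether each sample is a separate animal, so the p-values cover the spread among these samples alone, which may be technical. In such bulk samples, fewer vesicles from a cell type and less RNA per vesicle cannot be told apart.

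The miR-17-92 cluster is a polycistron: a single primary transcript from the host gene Mir17hg is cut into several miRNAs. It is induced by MYC and E2F factors, promotes proliferation and survival of many cell types, represses the pro-apoptotic gene Bim, and is needed for lung, heart and B-cell development in the mouse. The paralogues arose by duplication: miR-106b-25 lies within an intron of Mcm7, which encodes a replication helicase subunit, and miR-106a-363 is on the X chromosome. A miRNA finds its targets mainly through its seed, bases 2 to 8, so members of different clusters with the same seed can repress the same mRNAs.

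The mature sequences, from RefSeq on GRCm38.p6, are shown because the seeds define the 4 families and because small differences outside the seed decide what the array can separate. Capitals mark the seed. All 10 members matched the RefSeq table, and miR-106a-5p, which has no probe name of its own, is given for comparison.
miR-17-5p: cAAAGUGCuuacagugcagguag
miR-20a-5p: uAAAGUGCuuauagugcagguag
miR-20b-5p: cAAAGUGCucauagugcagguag
miR-106a-5p: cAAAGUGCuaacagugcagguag
miR-106b-5p: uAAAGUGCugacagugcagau
miR-93-5p: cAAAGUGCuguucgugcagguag
miR-18a-5p: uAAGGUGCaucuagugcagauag
miR-19a-3p: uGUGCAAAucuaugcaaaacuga
miR-19b-3p: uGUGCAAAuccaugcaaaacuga
miR-92a-3p: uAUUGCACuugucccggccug
miR-25-3p: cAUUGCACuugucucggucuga

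The miR-17 seed is held by 5 members from all 3 clusters, the miR-18 seed by 1, the miR-19 seed by 2 from miR-17-92, and the miR-92 seed by 1 member each of miR-17-92 and miR-106b-25. On GRCm38.p6 the miR-17-92 members lie at chr14:115043684-115044496 on the plus strand. The miR-106b-25 members lie at chr5:138165332-138165807 on the minus strand, inside Mcm7. The X-linked copies read by these probes lie at chrX:52741854-52742563 on the minus strand. Both miR-19b-3p and miR-92a-3p are made in identical form from chromosome 14 and from chromosome X, so their signal cannot be assigned to a cluster. Only miR-18a-5p, miR-19a-3p and miR-20a-5p have a probe position on mm9, the build of the array's annotation, that is confined to the chromosome 14 cluster.

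Each member was read by 2 probes of slightly different length, each printed on 15 spots, and the brighter one stands for the miRNA. The probes that miss another member's miRNA by 1 base are shown, each against 1 such relative, with the miR-93-5p probe as a more distant case from the same seed family. The bases that do not pair with the named relative are in capitals.
miR-17-5p probe against miR-20a-5p: ctacctgcactGt
miR-20a-5p probe against miR-20b-5p: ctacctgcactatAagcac
miR-20b-5p probe against miR-20a-5p: ctacctgcactatGagcact
miR-19a-3p probe against miR-19b-3p: tcagttttgcatAgatttgca
miR-19b-3p probe against miR-19a-3p: tcagttttgcatGgatttgc
miR-93-5p probe against miR-20a-5p: ctacctgcacGaACag

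The miR-17-5p probe has 13 bases and pairs with 0 mismatches to miR-106a-5p as well, so its signal may hold both. The miR-20a-5p and miR-20b-5p probes differ from a full match to each other's miRNA by 1 base, as do those of miR-19a-3p and miR-19b-3p. The miR-106b-5p probe had 2 mismatches to miR-17-5p, the miR-92a-3p probe 2 to miR-25-3p, and the miR-93-5p probe 3 to its nearest members. How much of the signal came from near relatives was not tested.

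On a given array between 405 and 554 miRNAs were well above background. LPS arrays detected 458 ± 47.0 and cesarean arrays 480 ± 68.2 (SD, n = 4 each), a difference within the spread (two-sided exact permutation test, p = 0.657). The log2 of the 75th percentile signal, a measure of overall brightness, was 8.06 ± 0.42 for the LPS group and 8.20 ± 0.51 for the cesarean group (SD, exact permutation p = 0.743). Signals were scaled to this percentile, raised to a floor of 3.75 and are given on the log2 scale. All 8 arrays lay on 1 slide, with LPS arrays in one row and cesarean arrays in the other, so row and group cannot be told apart.

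None of the 10 miRNAs passed the test between LPS preterm birth and cesarean section, although the mean of each was lower on LPS arrays. By limma with Benjamini-Hochberg adjustment at 0.05, 0 of the 10 passed, while 4.89% of the 470 tested miRNAs did (2.34% lower and 2.55% higher with LPS). At an unadjusted p of 0.05, 1 of the 10, miR-18a-5p, had a lower mean with LPS. Of all tested miRNAs 25.1% had such a p in either direction and 11.3% in the lower one, so the members' share was not above the background. The median log2 difference, LPS minus cesarean, was -0.52 over the members and -0.06 over all tested miRNAs. A difference below 0 was seen for 10 of 10 members and for 54.5% of all tested. More than 1.5-fold lower values with LPS were seen for 5 of the 10 members and for 16.4% of all tested. That count was 1 without cesarean replicate 2, 2 without LPS replicate 4 and 2 with normexp background correction. The LPS and cesarean values overlapped for all 10, whereas 17.0% of the tested miRNAs had groups that did not overlap, 7.23% with the LPS values lower. The members were read by related probes and came from shared transcripts, so they are not separate observations, and these counts carry no test.

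**Figure D1:**
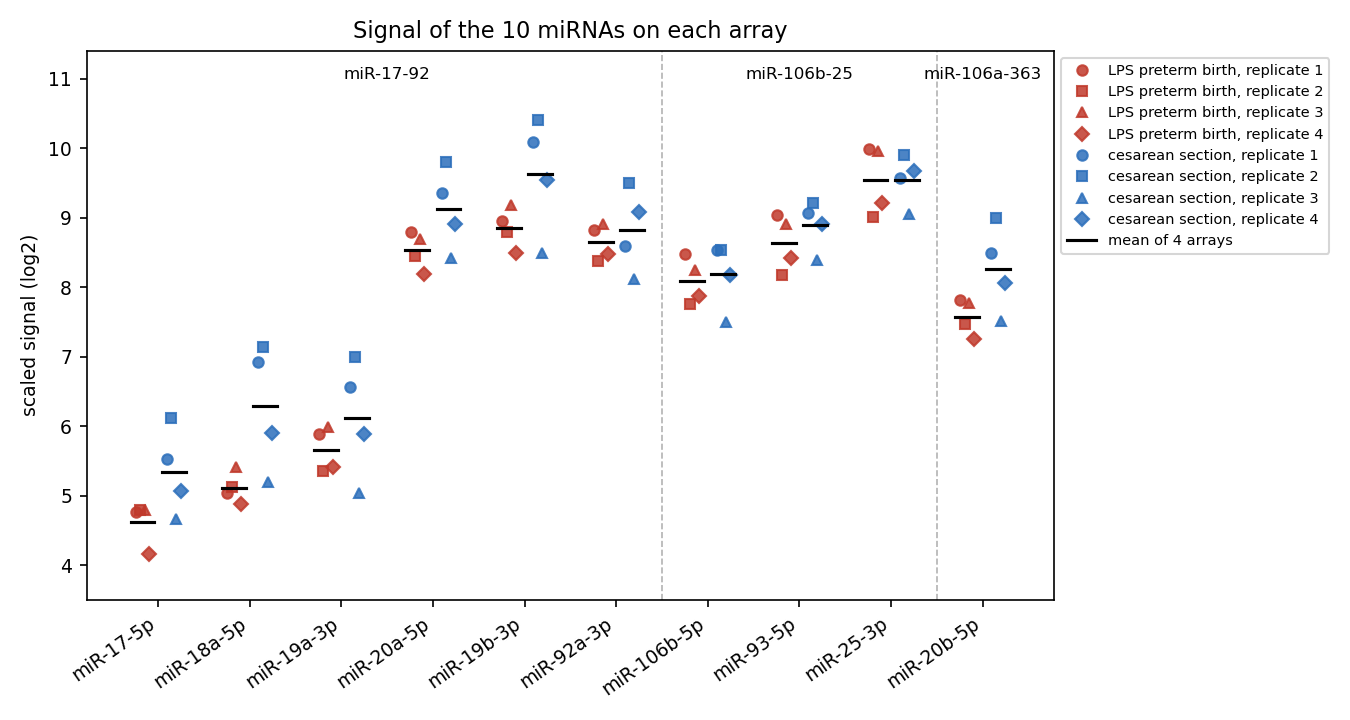
Scaled log2 signal (vertical axis) of each of the 10 miRNAs (horizontal axis, by cluster) on the 4 LPS arrays (red) and the 4 cesarean arrays (blue), with a symbol for each replicate and a bar at the mean of 4 arrays. The groups overlap for every miRNA, and cesarean replicate 2 (square) is the highest and replicate 3 (triangle) the lowest cesarean array throughout.

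The largest difference among the members was that of miR-18a-5p, the member with the miR-18 seed, whose processing from the primary transcript is known in human cells to need the RNA-binding protein hnRNP A1. Its signal was 5.04, 5.12, 5.41 and 4.88 on LPS arrays 1 to 4, against 6.92, 7.14, 5.20 and 5.90 on cesarean arrays 1 to 4. The LPS arrays were close together, and 3 of them lay below the lowest cesarean array, while 3 cesarean arrays lay above the highest LPS array. The log2 difference was -1.17 ± 0.41 (SE), a ratio of 0.444, with a 95% interval of -2.08 to -0.27 and a limma adjusted p of 0.106. It ranked 17 from the lowest of the 470 tested. Its second, shorter probe gave a difference of -1.29. That probe was above background on 7 arrays, and its LPS values of 3.96 to 4.54 were near the floor of 3.75. With normexp background correction the difference of miR-18a-5p was -0.59.

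The miR-19 seed members are known as the main oncogenic part of the cluster in mouse lymphoma. miR-19b-3p had signals of 8.95, 8.80, 9.18 and 8.48 on LPS arrays and 10.08, 10.40, 8.49 and 9.54 on cesarean arrays. Apart from cesarean replicate 3, which was at the level of the lowest LPS array, every cesarean array was above the highest LPS array. The difference was -0.78 ± 0.39 (SE, limma adjusted p = 0.241). For miR-19a-3p the values were 5.88, 5.36, 5.98 and 5.41 on LPS arrays and 6.56, 6.99, 5.04 and 5.88 on cesarean arrays. Here the whole LPS range lay within the cesarean range, with a difference of -0.46 ± 0.40 (limma adjusted p = 0.509).

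The miR-17 seed members of miR-17-92 are repressors of cell cycle inhibitors such as p21 and of the TGF-beta receptor. miR-20a-5p had signals of 8.79, 8.45, 8.69 and 8.19 on LPS arrays and 9.35, 9.80, 8.41 and 8.91 on cesarean arrays. All 4 LPS arrays were below the cesarean mean, but cesarean replicate 3 fell among them, and the difference was -0.59 ± 0.31 (SE, limma adjusted p = 0.256). miR-17-5p was dimmer, at 4.76, 4.79, 4.79 and 4.15 on LPS arrays and 5.53, 6.11, 4.67 and 5.06 on cesarean arrays. Its difference was -0.72 ± 0.33 (limma adjusted p = 0.205). On its least clear array 64.3% of its spots were well above background, against 100% for the brighter probes of the other 9 members on every array. Its 12-base probe was above background on 2 arrays.

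miR-92a-3p, known for its anti-angiogenic action in endothelium had the smallest difference in its cluster. It had signals of 8.82, 8.37, 8.91 and 8.48 on LPS arrays, all within the cesarean values of 8.59, 9.50, 8.12 and 9.08. The difference was -0.18 ± 0.32 (SE, limma adjusted p = 0.773), with a 95% interval from -0.88 to 0.52. A difference as large as the -0.78 of miR-19b-3p lies inside that interval. Both miRNAs were read on the same arrays, so the interval does not compare them. Whether miR-92a-3p responded less was not tested.

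The differences of the miR-106b-25 members were all smaller than their standard errors. miR-93-5p, with the miR-17 seed, had signals of 9.04, 8.18, 8.91 and 8.41 on LPS arrays and 9.06, 9.22, 8.39 and 8.91 on cesarean arrays, a difference of -0.26 ± 0.28 (SE, limma adjusted p = 0.615). miR-106b-5p, with the same seed, had 8.48, 7.76, 8.24 and 7.87 on LPS arrays and 8.53, 8.53, 7.50 and 8.17 on cesarean arrays, a difference of -0.10 ± 0.30 (limma adjusted p = 0.887). miR-25-3p, which has the miR-92 seed and is known in human cells as a repressor of Bim, had 9.99, 9.01, 9.96 and 9.21 on LPS arrays and 9.57, 9.89, 9.05 and 9.68 on cesarean arrays. LPS replicate 1 was the highest of all 8 arrays for miR-25-3p and LPS replicate 2 the lowest. Its difference was -0.01 ± 0.31 (limma adjusted p = 0.998), with a 95% interval from -0.69 to 0.67. The directions of miR-106b-5p and miR-25-3p were not settled: with the 75th percentile taken over all probes their differences were 0.001 and 0.09, and with quantile normalization that of miR-25-3p was 0.10.

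miR-20b-5p, the X-linked member with the miR-17 seed, had signals of 7.81, 7.46, 7.77 and 7.26 on LPS arrays and 8.49, 8.99, 7.51 and 8.06 on cesarean arrays. LPS replicates 2 and 4 lay below every cesarean array and replicates 1 and 3 above the lowest of them. The difference was -0.69 ± 0.32 (SE, limma adjusted p = 0.212), with a 95% interval from -1.41 to 0.03.

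**Figure D2:**
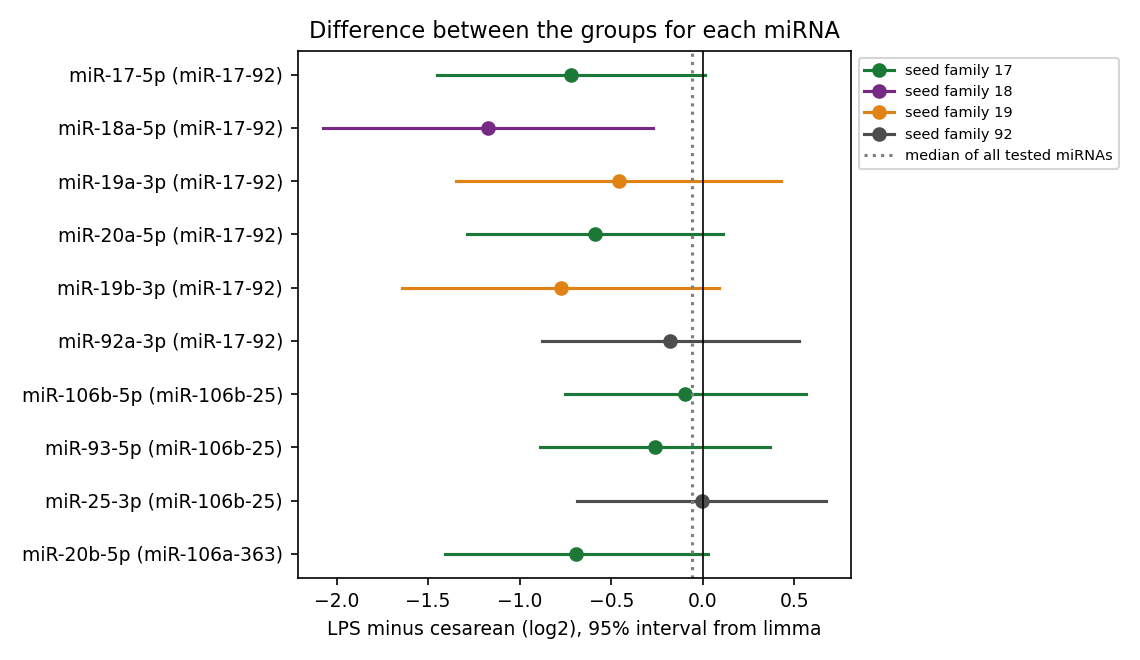
Log2 difference, LPS minus cesarean (horizontal axis), of each miRNA (vertical axis, with its cluster), with the 95% interval from limma over 4 arrays per group. Colours give the seed family, the dotted line is the median of all 470 tested miRNAs (-0.06), and the interval of miR-18a-5p alone does not reach 0 before adjustment.

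By cluster, the median difference was -0.65 for miR-17-92 (6 members, from -1.17 to -0.18), -0.10 for miR-106b-25 (3 members, from -0.26 to -0.01) and -0.69 for the miR-106a-363 member. By seed family it was -0.59 for miR-17 (5 members), -1.17 for miR-18 (1 member), -0.62 for miR-19 (2 members) and -0.09 for miR-92 (2 members). Within the miR-17 seed family, the pair from miR-17-92 had a median of -0.65 and the pair from miR-106b-25 one of -0.18. The X-linked miR-20b-5p, with the same seed, was near the miR-17-92 pair. The difference of miR-92a-3p was nearer to those of all 3 miR-106b-25 members than to those of the others listed under miR-17-92. The values under miR-17-92 are not specific to it: miR-19b-3p and miR-92a-3p are also made from chromosome X, and the miR-17-5p probe also pairs with miR-106a-5p.

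On each array, the mean deviation of miR-17-92 from its cesarean mean minus that of miR-106b-25 was -0.81, -0.18, -0.55 and -0.58 on LPS arrays 1 to 4. On cesarean arrays 1 to 4 it was 0.10, 0.43, -0.34 and -0.20. LPS replicate 2 lay among the cesarean arrays, so the groups overlapped, and the difference between the clusters carries no test.

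**Figure D3:**
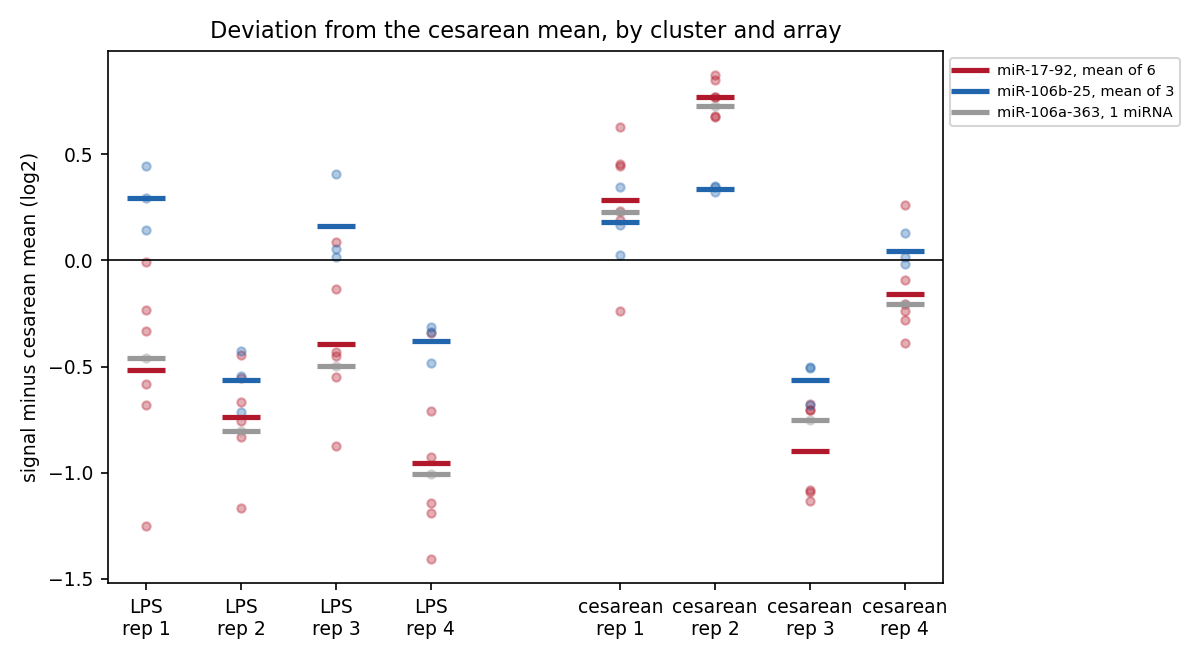
Log2 signal minus the cesarean mean of the same miRNA (vertical axis) on each of the 4 LPS and 4 cesarean arrays (horizontal axis), as points for single miRNAs and bars for cluster means. On LPS replicates 1 and 3 the miR-106b-25 bars stand above 0 (0.30 and 0.16) and the miR-17-92 bars below it (-0.51 and -0.39), while cesarean replicate 3 is low for all 3 clusters.

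The arrays fell in much the same order for all members. Cesarean replicate 2 was the highest and cesarean replicate 3 the lowest cesarean array for 10 of the 10, an order found for 17.7% of all tested miRNAs. Replicate 2 was also the highest of all 8 arrays for 9 of the 10, against 14.9% of all tested. Among the LPS arrays, replicates 1 and 3 both lay above replicates 2 and 4 for 8 of the 10, against 25.5% of all tested. These orders were noticed in the values and are given as descriptions.

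The spread was wider among cesarean arrays than among LPS arrays for 8 of the 10 members, against 31.9% of all tested miRNAs. The members' SD had a median of 0.30 in the LPS group and 0.61 in the cesarean group, whereas over all tested miRNAs the median SD came to 0.45 in the LPS group and 0.35 in the cesarean group. miR-18a-5p had the widest cesarean spread, with an SD of 0.22 on LPS arrays and 0.91 on cesarean arrays. The exceptions were miR-93-5p (SD 0.41 on LPS and 0.36 on cesarean arrays) and miR-25-3p (SD 0.51 on LPS and 0.36 on cesarean arrays).

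The members' median difference rested on which cesarean array was included. It was -0.27 without cesarean replicate 2 and -0.82 without cesarean replicate 3. Without cesarean replicate 3, 6 of the 10 had an unadjusted p under 0.05, against 94 of the 470 tested miRNAs. After adjustment 0 of the 10 passed, against 3 of the 470. That array was the lowest cesarean array for all 10, so leaving it out necessarily moved each difference further below 0. Brightness and the members' order matched only in part in the cesarean group. Replicates 1 and 2 had a 75th percentile signal of 8.81 and 8.45, and replicates 3 and 4 one of 7.74 and 7.82. The members' mean deviation from the cesarean mean was 0.25, 0.64, -0.78 and -0.10 on cesarean replicates 1 to 4. Replicate 1 was thus the brightest cesarean array, while replicate 2 was the highest for all 10 members. LPS replicate 3, the brightest LPS array at 8.67, was the highest LPS array for 5 of the 10, and LPS replicate 1, at 7.83, for the other 5. On LPS replicate 3, miR-17-5p (4.79), miR-18a-5p (5.41) and miR-19b-3p (9.18) lay below cesarean replicates 1, 2 and 4. There miR-19a-3p (5.98) lay above cesarean replicate 4 (5.88), and miR-92a-3p (8.91) above cesarean replicate 1 (8.59). The part of brightness in the pattern was not tested.

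Pairs of members were compared by the root mean square difference of their log2 profiles over the 8 arrays, each centred on its own mean. The closest of the 45 pairs was miR-20a-5p and miR-20b-5p, at 0.06, which share a seed, lie on different chromosomes and have probes that each miss the other's miRNA by 1 base. The median was 0.14 for the 3 pairs with both cluster and seed in common, 0.33 for the 15 pairs of one cluster with different seeds, 0.30 for the 9 pairs of one seed from different clusters, and 0.41 for the 18 pairs with neither in common. Near matches of the probes ran through these classes. The probes of miR-17-5p and miR-20a-5p each miss the other's miRNA by 1 base, as do those of miR-19a-3p and miR-19b-3p. The miR-17-5p probe also misses miR-20b-5p by 1 base. The part of shared probe signal in these medians was not tested. Each member was counted under its listed cluster alone. miR-19b-3p and miR-92a-3p are also made from the X cluster of miR-20b-5p. Their pairs with miR-20b-5p (0.18 and 0.36) were nevertheless counted among the 18. miR-92a-3p, miR-106b-5p and miR-25-3p were each closest to miR-93-5p, at 0.25, 0.14 and 0.16.

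The other products of the same clusters were hardly seen. Of 18 further mature miRNAs of the 3 clusters, 17 had probes, none passed the detection filter, and 14 were above background on 0 of the 8 arrays. Passenger strands, the arm of a hairpin that is usually degraded, made up most of them. The exceptions were miR-17-3p, above background on LPS replicate 3 and cesarean replicates 1 and 2, and miR-106b-3p and miR-363-3p, above it on cesarean replicates 1 and 2. Those arrays also had the most miRNAs well above background, at 519, 554 and 521. The scaled signals of miR-106b-3p and miR-363-3p were at the floor on all 8 arrays. The paralogue miR-18b-5p and the relatives with the miR-92 seed from other loci, miR-32-5p, miR-92b-3p and miR-367-3p, were above background on none of the 8 arrays. A probe that was not well above background gives only an upper limit, and low-abundance RNA may be missed at this sensitivity.

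Outside the clusters, 5 of 460 miRNAs came nearest to the mean profile of the 10 members: miR-323-3p (root mean square difference 0.18 over 8 arrays), miR-674-3p (0.21), miR-130a-3p (0.22), miR-335-5p (0.22) and miR-324-5p (0.28). The members themselves lay between 0.09 and 0.42 from it, and the median of the 460 was 0.68. Of the 5, miR-335-5p had the largest difference, with means of 6.45 ± 0.44 in the LPS group and 7.09 ± 0.76 in the cesarean group (SD over 4 arrays) and a limma adjusted p of 0.326.

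Marker miRNAs of red blood cells, leukocytes and epithelium that passed the test were all higher with LPS. There were 5 such calls, and 0 of them held with a block for slide column, without scaling, with spike-in scaling or without cesarean replicate 3. The calls numbered 1 (miR-200c-3p) without cesarean replicate 1, cesarean replicate 2 or LPS replicate 2, and 2 (miR-144-3p and miR-200c-3p) without cesarean replicate 4 or LPS replicate 3. Of the red blood cell miRNAs, 3 of 5 were tested and 1, miR-144-3p, was higher with LPS past the threshold, with 0 lower. miR-144-3p was well above background on 4 LPS and 0 cesarean arrays, and its cesarean values all lay at the floor. It thus entered the test through the LPS group alone. miR-451a differed by 0.99 and miR-486a-5p by 0.83 without passing (limma adjusted p = 0.0814 and 0.171). The log2 of the summed signal of the 3 tested ran from 13.8 to 14.9 on LPS arrays and from 13.1 to 13.9 on cesarean arrays. Of the leukocyte miRNAs, 3 of 5 were tested and miR-142a-3p passed as higher, by 1.23 (limma adjusted p = 0.0325). Its cesarean values, 3.75 to 4.26, were at or near the floor, and it did not pass with a floor 2 times as high. miR-223-3p differed by 0.09 and miR-342-3p by -0.45 without passing (limma adjusted p = 0.874 and 0.367). The sums of the 3 tested ran from 9.30 to 9.82 on LPS arrays and from 9.42 to 9.80 on cesarean arrays. All 5 epithelial miRNAs of the miR-200 family were tested and 3 passed as higher, with sums of 10.5 to 11.1 on LPS arrays and 9.51 to 9.94 on cesarean arrays. The part of any such source in the members' values was not tested.

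**Figure D4:**
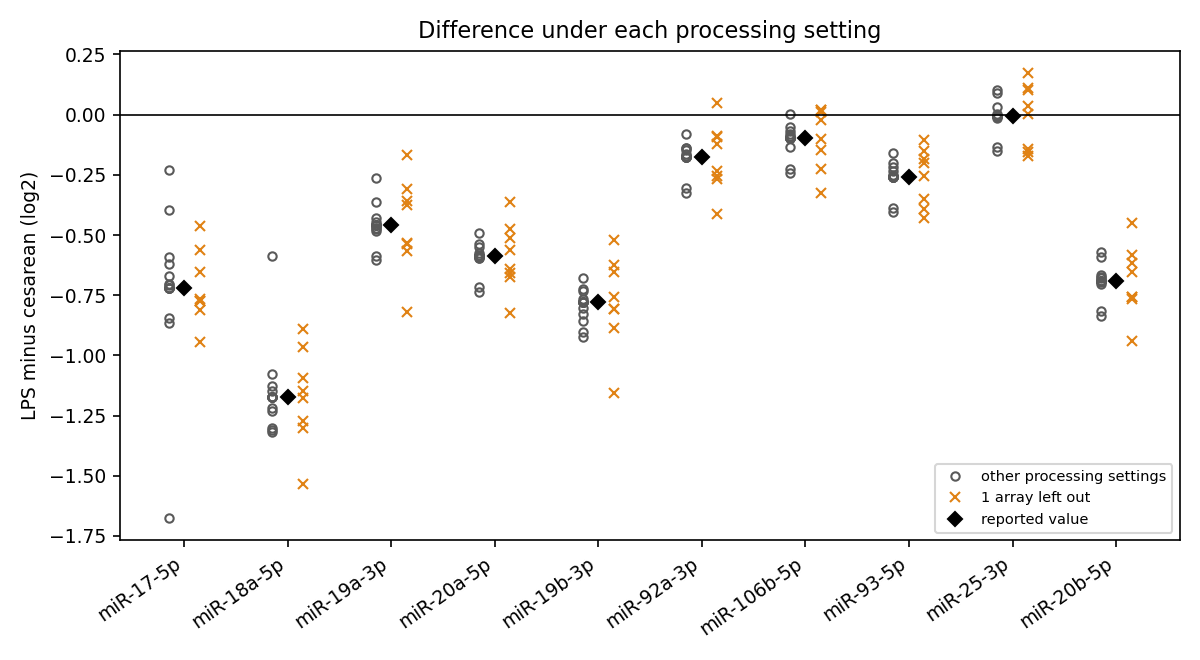
Log2 difference, LPS minus cesarean (vertical axis), of each miRNA (horizontal axis) as reported (diamond), under 15 other processing settings (circles) and with 1 of the 8 arrays left out in turn (crosses). The differences of miR-106b-5p, miR-25-3p and miR-92a-3p fall on both sides of 0, that of miR-92a-3p only without cesarean replicate 2. Those of the other miRNAs stay below 0 throughout.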

How the data were processed

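The 8 samples were grouped by their labels. The authors deposited linear spot intensity values, background-subtracted and without normalization between arrays, read with Agilent Feature Extraction 10.7.1.1 per the file headers (9.1 per the submitters' processing notes). They also deposited a table of log2 values normalized between arrays by a method not given in the sources used here, which served as an alternative. Labelling from 0.5 μg of RNA is described in the labels' protocols.

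Control spots and spots with outlier marks were left out (2.99% to 3.48% of miRNA spots). A probe counted as well above background where a share of 0.5 or more of its kept spots was marked so. Signals were divided by each array's 75th percentile, taken from the 618 probes that every array detected, raised to a floor of 13.5 (3.75 on the log2 scale), and the brightest probe stood for each miRNA. The 470 of 1881 miRNAs well above background on at least 3 of 4 arrays of a group were tested with limma 3.58.1 in R 4.3.3 (two-sided, Benjamini-Hochberg over all 470), in a fit tested on simulated data. Plots were drawn with matplotlib 3.10.9 and tables read with pandas 2.3.3. Named are all members, the other products of their clusters, the 5 nearest miRNAs by profile and marker miRNAs that passed. The members and lists were chosen with earlier results of these data known. The number of arrays limits the precision. Scaling, background, probe summary, floor, filter, test, slide column and single arrays left out were varied.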

Additional observations from a re-analysis of the deposited data

Results flagged for a closer look

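On LPS replicate 4 miR-17-5p had a signal of 4.15, far below the other LPS arrays at 4.76 to 4.79, a gap that made up a share of 0.950 of the range of the 4. Of 20 sets of 4 arrays checked, 10 miRNAs in each of the groups, this was the only one with such a gap, and chance alone gives about 1 in 20.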

How the results depend on the processing

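Across 23 alternatives, 0 of the 10 members passed each time, and miR-17-5p, miR-18a-5p, miR-19a-3p, miR-19b-3p, miR-20a-5p, miR-20b-5p and miR-93-5p stayed lower with LPS in each. The smallest adjusted p was 0.0733, for miR-18a-5p. The members' median ran from -0.67 to -0.25 over the processing settings (nearest 0 with normexp), and from -0.82 to -0.27 with 1 array left out. Without scaling the median of all miRNAs was -0.20, and the members' median relative to it was -0.47, as in the reported values. miR-25-3p turned to 0.0918 with the percentile over all probes, 0.10 with quantile normalization, 0.0046 with all spots kept and 0.0317 in the deposited value table, and miR-106b-5p to 0.001 with the percentile over all probes. With 1 array left out, miR-25-3p ran from -0.17 to 0.17, miR-106b-5p from -0.32 to 0.0198 and miR-92a-3p from -0.41 to 0.0492. The 23 calls over all miRNAs became 13 with the percentile over all probes, 1 without scaling, 1 with spike-in scaling, 36 with quantile normalization, 6 with the software's total per miRNA, 9 with normexp, 15 with miRNAs above background on all 8 arrays, 2 without a filter and 1 with a block for slide column, and ran from 3 (without cesarean replicate 3) to 79 (without LPS replicate 1) with 1 array left out. The cause of these moves was not tested. The labels give the groups no shared replicate numbers, so the slide column, a position on the slide, was the only block fitted.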

Other observations

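The scanner software's own total for miR-17-5p gave a log2 difference of -1.67, against -0.72 by the brighter probe, and cesarean replicate 3 carried it. There the total per miRNA was 253 on the linear scale, while the software's totals for the 2 probes of miR-17-5p summed to 6.95, and on cesarean replicate 3 the scaled log2 total was 8.21 against 4.11 to 4.64 on the other cesarean arrays. On LPS replicates 1, 2 and 4 and cesarean replicate 4 the total was 1.65, 1.79, 1.60 and 1.51 times that sum. For the other 9 members the ratio of the total to the sum was 1.0 on all 8 arrays. In the deposited value table miR-17-5p stood at 3.67 on cesarean replicate 3, against 3.82 to 5.03 on the other cesarean arrays, with a difference of -0.70.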
